A study of Homo sapiens with 23 samples.

Results

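The genes described here are 35 genes of the ATF4 and amino acid stress response in A549 cells depleted of THUMPD3, out of 61806 genes in the first count table and 42901 in the second. They were taken from a fixed list of names in 5 groups: 6 genes of serine synthesis and one-carbon metabolism, 5 of asparagine, proline and sulfur amino acid metabolism, 7 amino acid transporters, 7 transcription factors and 10 stress effectors. All 35 were found in both tables.

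A549 is a human lung adenocarcinoma cell line, and THUMPD3 is a methyltransferase that places m2G on tRNA. RNA sequencing after removal of ribosomal RNA was deposited for 23 libraries, 17 in a first table and 6 more deeply sequenced ones in a second. The labels give the cell line as wild type in the control groups and as THUMPD3 knockdown in the others. Knockdown was by a doxycycline-inducible short hairpin RNA carried in puromycin-selected cell pools, or by a transfected siRNA.

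The hairpin groups of the first table were shD3 #1 with sh1Control and shD3 #4 with sh4Control, with 3 libraries each. The siRNA groups were siD3 #3, with 3 libraries, and siControl, with the 2 libraries analysed here. The deep groups were shD3 #1 and sh1Control again, with 3 libraries each, and whether they came from the same cultures as the first libraries was not stated. The siRNA and hairpin cells were harvested on different days after the start of depletion, and only the hairpins were induced with doxycycline. The delivery, the day, the doxycycline and the target sequence thus cannot be told apart in a comparison of siRNA with hairpins. The methods of the study call the conditions untreated and treated. Whether the hairpin controls received doxycycline was not stated, so its effect and that of depletion cannot be told apart within a hairpin comparison.

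When amino acids run short, when unfolded protein builds up in the endoplasmic reticulum or when haem or viral RNA signals arise, a kinase of the initiation factor eIF2 slows general translation while the mRNA of ATF4 is translated more. ATF4, a basic leucine zipper factor, then pairs with C/EBP proteins and activates genes that make, import or charge amino acids, together with a second layer of factors such as DDIT3 (CHOP). Because ATF4 is controlled largely at translation, the level of its mRNA does not by itself measure its activity. Serine and one-carbon synthesis, proline synthesis and cystine uptake feed nucleotide, protein and glutathione synthesis in lung cancer lines.

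THUMPD3 itself was checked first. Its level is given, as are all levels below, in cpm, read counts relative to the size of the library as scaled by the trimmed mean of M-values (TMM). The sh1Control libraries held 61.8, 59.6 and 62.5 cpm and the shD3 #1 libraries 30.9, 30.5 and 32.9, so 51.3% of the control mean remained. In shD3 #4 31.4% remained, in siD3 #3 17.1% and in the deep shD3 #1 libraries 49.6%. Every knockdown library lay below every one of its controls. In the annotation 21.4% of the canonical transcript of THUMPD3 lies opposite other genes, and the strand setting of the counting was not stated. Among these genes THUMPD3-AS1 held 425 to 1028 counts in the first libraries, against 211 to 1363 for THUMPD3. The libraries held from 9854294 to 22101059 counts in the first table and from 27285889 to 59974740 in the second, and no 2 libraries were identical. KRT8 and KRT18, keratins of epithelial cells, stood between 963 and 3414 cpm in every library. PTPRC, PECAM1, VWF and DCN, markers of blood, endothelial and stromal cells, reached 10 counts at most in any library. The fifth such marker, COL3A1, was higher in the shD3 #1 cells, with a mean of 6.44 cpm against 0.594 in sh1Control, so that the sum of the 5 markers was 6.73 cpm against 0.789. It was also called higher in shD3 #4, at 1.23 against 0.344 cpm, and in the deep libraries, at 3.46 against 0.0693. Of 5 epithelial markers, CDH1 fell with shD3 #1, from a mean of 119 to 45.0 cpm, and in the deep libraries, from 213 to 81.3. KRT19 rose 3.87-fold in shD3 #1, 3.27-fold in the deep libraries and 2.66-fold in siD3 #3, EPCAM rose 2.00-fold and 3.71-fold with shD3 #1 in the first and the deep libraries, and KRT8 rose 1.60-fold in the deep ones. In shD3 #4 none of the 5 was called by edgeR, although all 5 lay beyond their controls at changes under 1.5-fold. The part of these markers in the results below was not tested.

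A pair of libraries stood apart from their groups. The median absolute difference in log2 cpm over all genes was 0.217 and 0.225 between siD3 #3 replicate 3 and the other replicates of its group, against 0.119 between those 2. The same measure was 0.183 and 0.191 between shD3 #1 replicate 3, the library with the fewest counts, and its group, against 0.103 between the other 2.

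Sequences in front of the genes are shown because ATF4 and C/EBP factors are known to bind a short composite element together. In the windows that RefSeq gives for GRCh38.p14, from 250 bases before to 50 bases after each gene start, the letters TGATGNAA or their reverse complement TTNCATCA were found for 9 of the 27 members that have a window (33.3%) and for 1217 of all 27305 genes (4.46%). The 9 were SLC1A4, ASNS, SLC3A2, SLC7A1, JDP2, CHAC1, HERPUD1, CEBPG and SLC1A5. The endoplasmic reticulum stress response element, searched on both strands, was found for 1 of the 27, XBP1 (3.7%), and for 25 of all genes (0.0916%). No member had both motifs. The 250 bases before the start are printed 5′ to 3′ on the strand of the gene, with the matching letters in capitals, for 4 members whose values differ most in kind below: CHAC1 at chr15:40953221-40953470 on the plus strand, CEBPG at chr19:33373863-33374112 on the plus strand, ASNS at chr7:97872409-97872658 on the minus strand and XBP1 at chr22:28800570-28800819 on the minus strand.
CHAC1: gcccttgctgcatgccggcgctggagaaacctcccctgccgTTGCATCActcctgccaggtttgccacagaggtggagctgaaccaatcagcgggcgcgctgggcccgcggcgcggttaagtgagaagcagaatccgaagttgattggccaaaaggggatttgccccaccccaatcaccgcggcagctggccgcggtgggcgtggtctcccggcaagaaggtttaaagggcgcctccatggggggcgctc
CEBPG: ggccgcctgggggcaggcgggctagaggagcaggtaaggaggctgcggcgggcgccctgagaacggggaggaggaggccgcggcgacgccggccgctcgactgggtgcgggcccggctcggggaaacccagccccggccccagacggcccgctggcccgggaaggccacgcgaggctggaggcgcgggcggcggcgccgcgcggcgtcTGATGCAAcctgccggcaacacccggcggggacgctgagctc
ASNS: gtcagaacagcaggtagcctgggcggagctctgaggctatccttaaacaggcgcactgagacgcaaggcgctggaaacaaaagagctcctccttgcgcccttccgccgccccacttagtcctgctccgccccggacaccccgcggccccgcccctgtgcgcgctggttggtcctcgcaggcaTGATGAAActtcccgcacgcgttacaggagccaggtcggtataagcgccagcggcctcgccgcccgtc
XBP1: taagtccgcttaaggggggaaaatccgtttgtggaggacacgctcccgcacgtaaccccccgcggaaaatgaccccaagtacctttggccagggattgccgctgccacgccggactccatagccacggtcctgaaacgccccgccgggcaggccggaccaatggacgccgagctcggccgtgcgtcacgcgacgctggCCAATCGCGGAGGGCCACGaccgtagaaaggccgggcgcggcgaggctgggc

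The match began 209 bases before the start in CHAC1, 42 before in CEBPG, 68 before in ASNS and 52 before in XBP1. CHAC1 and XBP1 moved in opposite directions under the 2 hairpins, CEBPG was a little lower in every comparison and ASNS was called in none of them. A match describes the letters of a window and is not a measured binding site.

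The members were lower more often than higher in every comparison, but they did not move as 1 block, and which of them changed depended on the knockdown. A gene was called changed when its adjusted p from the quasi-likelihood test of edgeR, adjusted by Benjamini and Hochberg over all genes tested, was under 0.05 and its fold change was at least 1.5 in either direction. In shD3 #1, 4 of the 34 members tested rose and 9 fell, where 14.5% of all 16456 genes tested rose and 14.6% fell. In shD3 #4, 2 of 34 rose and 7 fell, against 8.00% and 4.49% of all genes. In siD3 #3, 2 of 35 rose and 8 fell, against 12.5% and 9.42%. In the deep libraries, 1 of 35 rose and 12 fell, against 15.0% and 14.1%. The median log2 fold change of the members was -0.31, -0.18, -0.23 and -0.22 in these 4 comparisons, beside -0.01, 0.01, 0.03 and -0.02 over all genes. The value concerns the share of RNA in a library, and fewer cells that express a gene and less of its RNA per cell cannot be told apart.

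No member was called in the same direction in all 3 knockdowns of the first table, with edgeR or with DESeq2 (0 each), where 1.02% of the 15656 genes tested in all 3 rose throughout and 0.805% fell throughout. With the adjusted p alone, an alternative added after the values were seen, 7 members were higher and 19 lower in shD3 #1 (28.6% and 27.8% of all genes), 3 and 16 in shD3 #4 (20.0% and 20.8%), 4 and 11 in siD3 #3 (16.6% and 16.4%), and 9 and 19 in the deep libraries (31.1% and 31.5%). By this rule 5 of 34 members were lower in all 3: PHGDH, PSAT1, MTHFD2, CEBPG and XPOT, against 6.14% of all genes, and none was higher in all 3, against 3.35%. At an unadjusted p under 0.05, 6 members were lower in all 3, against 7.39% of all genes, and 0 higher, against 4.84%. Every knockdown library lay below every control in all 3 knockdowns for PSAT1, MTHFD2, CEBPG, XPOT and SLC7A1, again 5 of 34 (14.7%), against 7.99% of all genes. Taken 1 comparison at a time, 8 members lay wholly above and 20 wholly below their controls in shD3 #1 (30.8% and 31.2% of all genes), 6 and 17 in shD3 #4 (24.7% each), 9 and 14 in siD3 #3 (30.5% and 29.5%), and 8 and 17 in the deep libraries (33.2% and 34.0%). For no member did every knockdown library lie above every control in all 3, against 5.40% of all genes.

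**Figure D1:**
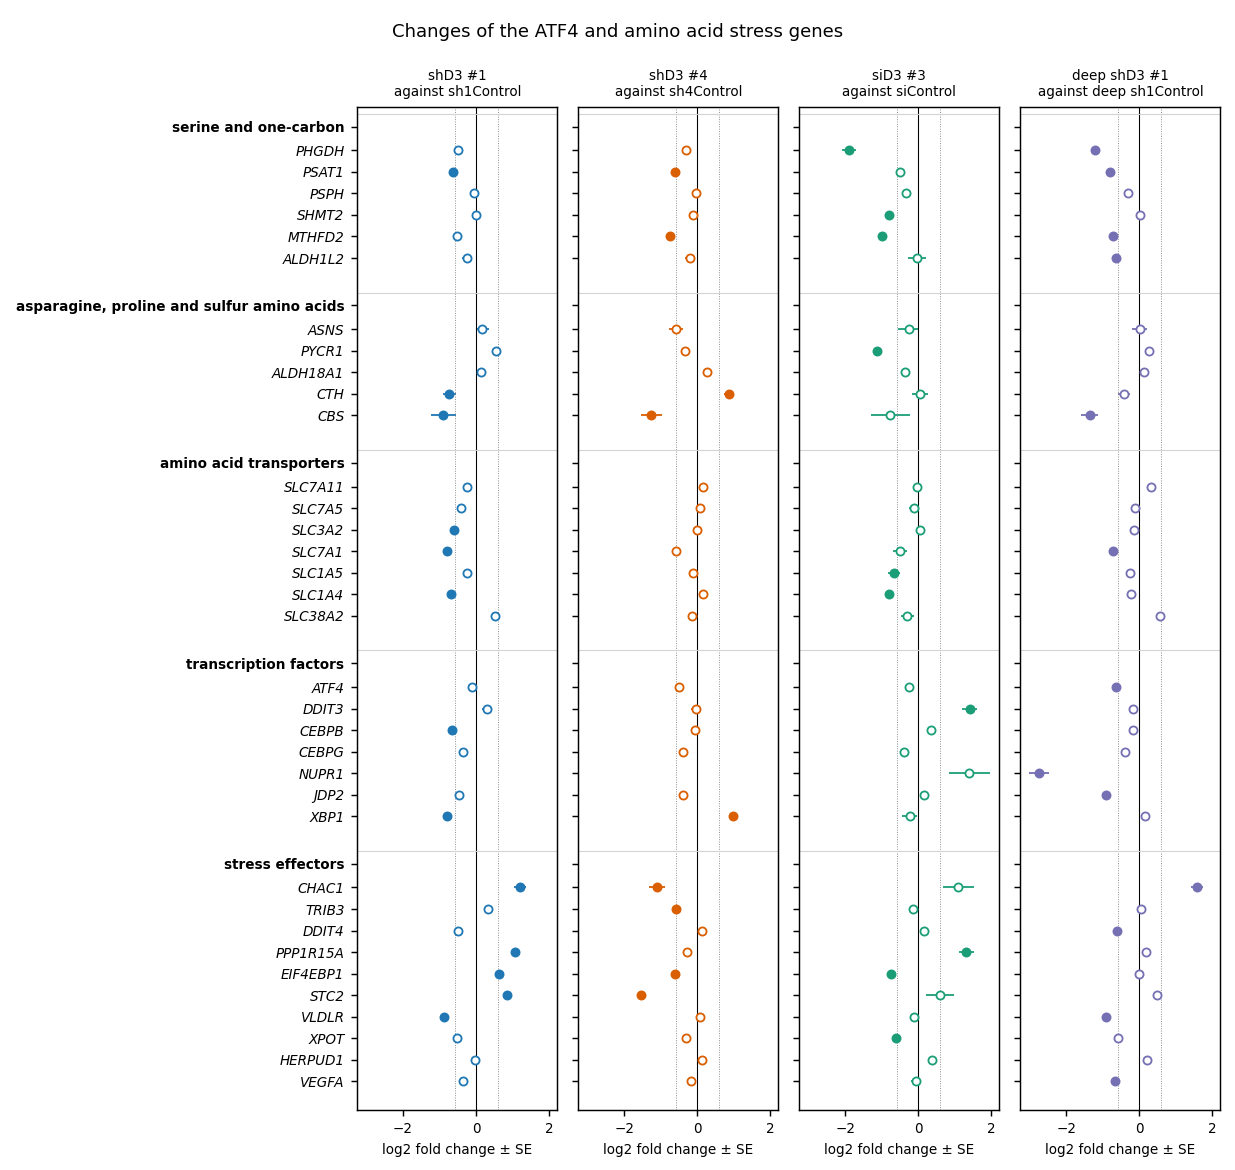
Log2 fold change with its standard error (x axis) of the members, by group (y axis), in each of the 4 comparisons. Filled points were called and open points were not, dotted lines mark a 1.5-fold change in either direction, and NUPR1 has no point in the 2 hairpin comparisons of the first table, where its counts were too low to test. Filled points to the left outnumber those to the right in every panel, and CHAC1 and STC2 change sides between the hairpins.

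None of the 6 serine synthesis and one-carbon genes rose in any comparison, with edgeR or DESeq2 or at an unadjusted p under 0.05 (0 in each), and between 1 and 4 of them fell. In shD3 #1 1 of 6 fell (14.6% of all genes), in shD3 #4 2 (4.49%), in siD3 #3 3 (9.42%) and in the deep libraries 4 (14.1%). The medians were -0.38, -0.25, -0.64 and -0.67. In the same order 14.5%, 8.00%, 12.5% and 15.0% of all genes were called higher. With the adjusted p alone, a stricter rule than the unadjusted p, 28.6%, 20.0%, 16.6% and 31.1% of all genes were higher. PHGDH, the first enzyme of serine synthesis from glycolysis (ENSG00000092621, chr1:119648411-119744218 in GRCh38), had the largest falls of the group in siD3 #3 and in the deep libraries. Its siControl libraries both held 28.5 cpm and its siD3 #3 libraries 5.71, 7.54 and 9.61, a log2 fold change of -1.90 (SE 0.19, edgeR adjusted p = 0.00033). The 3 depleted libraries lay at 26.7% of the control mean, far below both controls. Its deep libraries stood at 31.8, 32.2 and 32.4 cpm in the controls and at 12.5, 16.5 and 13.0 after depletion, a log2 fold change of -1.21 (SE 0.08). In shD3 #1 it went from 29.9, 33.2 and 28.2 to 22.2, 23.5 and 18.1 cpm, a change of -0.50 (SE 0.09) that missed the fold threshold without overlap of the groups. In shD3 #4 the groups overlapped, and the change was -0.31 (SE 0.10).

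PSAT1, the aminotransferase that follows PHGDH, was lower by about the same amount everywhere. It held 142, 135 and 136 cpm in sh1Control and 84.6, 83.1 and 99.1 in shD3 #1, and it held 163, 150 and 139 in sh4Control and 100.2, 88.0 and 108 in shD3 #4. The log2 fold changes were -0.64 (SE 0.07) and -0.61 (SE 0.07), both called, and -0.80 (SE 0.07) in the deep libraries, also called. In siD3 #3 it went from 140 and 166 to 102, 110 and 114 cpm, with a log2 fold change of -0.49 (SE 0.10, edgeR adjusted p = 0.0088), under the fold threshold. The groups did not overlap in any of the 4 comparisons.

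MTHFD2, the mitochondrial folate dehydrogenase, was lower in every comparison, as PSAT1 was, but fell furthest under the siRNA, where PSAT1 fell least. It stood at 132 and 145 cpm in siControl and at 61.8, 66.7 and 81.8 in siD3 #3, a log2 fold change of -0.98 (SE 0.13). It fell by 0.73 (SE 0.07) in shD3 #4 and by 0.71 (SE 0.06) in the deep libraries on the log2 scale, and the value in shD3 #1 was -0.51 (SE 0.07), not called, and -0.59, called, without shD3 #1 replicate 3. In the annotation 36.8% of its canonical transcript lies opposite other genes, among them SLC4A5, and the strand setting of the counting was not stated, but SLC4A5 itself held at most 22 counts in the first libraries and 493 in the deep ones.

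SHMT2, the mitochondrial serine hydroxymethyltransferase that feeds MTHFD2, fell in siD3 #3 alone among the calls. It went from 75.3 and 74.1 cpm to 41.8, 40.7 and 47.0, a log2 fold change of -0.79 (SE 0.09), while the values under shD3 #1, shD3 #4 and in the deep libraries were 0.00, -0.11 and 0.01. The siRNA effect was lower than the mean hairpin effect by 0.72 (SE 0.10, adjusted p = 2.1e-05, edgeR interaction contrast). PSPH, the phosphatase that completes serine synthesis, was called nowhere, with values from -0.34 to -0.04. ALDH1L2, a mitochondrial folate enzyme at 3.63 to 11.5 cpm, was called in the deep libraries alone, at -0.63 (SE 0.10).

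**Figure D2:**
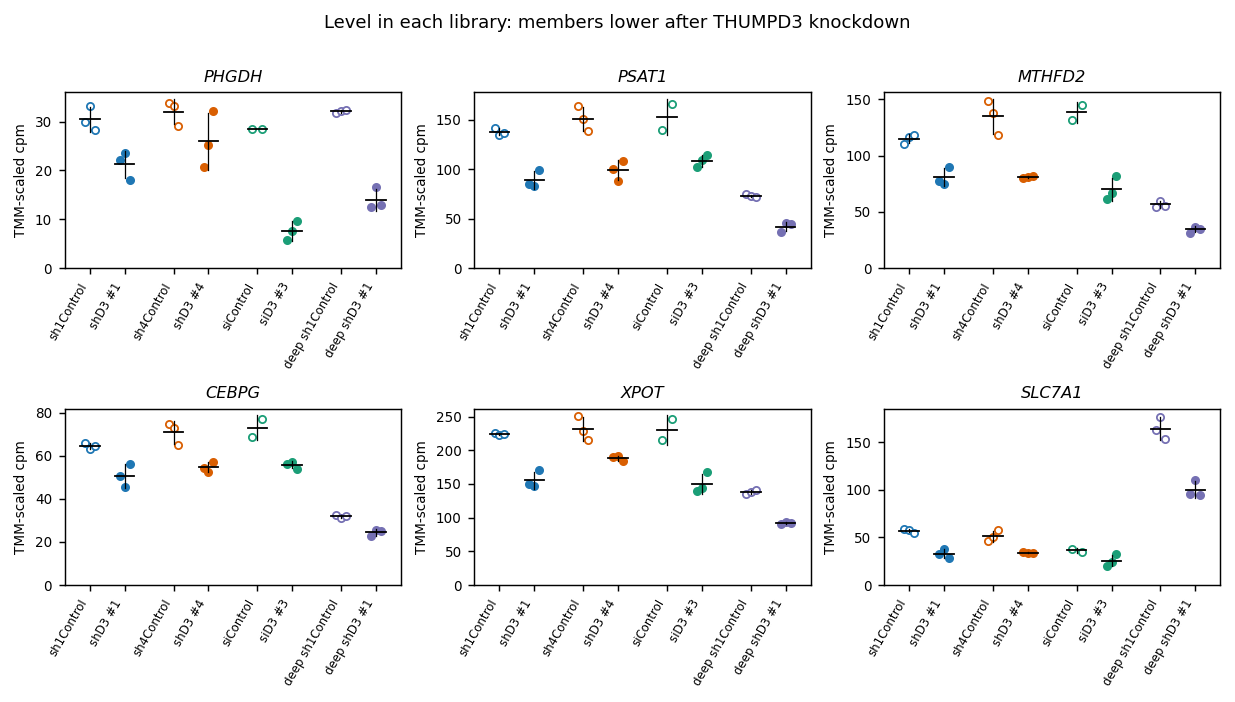
Level in each library in TMM-scaled cpm (y axis, from 0) of 6 members, by group (x axis). Open points are control libraries, filled points knockdown libraries, horizontal lines group means and vertical lines 1 SD. In all 6 panels the knockdown points of the first table lie below their controls, except PHGDH in shD3 #4, where the highest knockdown library (32.1 cpm) passes the lowest control (29.1 cpm).

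Among the genes of asparagine, proline and sulfur amino acids the directions were mixed. The number called higher and lower was 0 and 2 of 5 in shD3 #1 (14.5% and 14.6% of all genes) and 1 and 1 in shD3 #4 (8.00% and 4.49%). It was 0 and 1 in siD3 #3 (12.5% and 9.42%) and 0 and 1 in the deep libraries (15.0% and 14.1%). PYCR1, the last enzyme of proline synthesis, fell in siD3 #3 from 52.2 and 53.2 cpm to 22.4, 23.0 and 27.1, a log2 fold change of -1.13 (SE 0.11). In shD3 #1 it went the other way, from 44.3, 40.7 and 41.9 cpm to 63.1, 56.3 and 66.1, a value of 0.54 (SE 0.07) just under the fold threshold. The groups did not overlap in either case. ALDH18A1, which begins proline synthesis from glutamate, was called nowhere, with values from -0.35 to 0.26.

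CTH, the cystathionine gamma-lyase that makes cysteine, separated the 2 hairpins. It held 4.57, 4.18 and 4.69 cpm in sh1Control and 3.01, 2.82 and 2.04 in shD3 #1, and it held 3.88, 3.39 and 3.79 in sh4Control and 7.66, 6.31 and 6.20 in shD3 #4. It fell by 0.73 (SE 0.17) on the log2 scale with the first hairpin and rose by 0.88 (SE 0.14) with the second, with no overlap either way. In siD3 #3 it was at 0.05 (SE 0.21), and in the deep libraries, where the groups overlapped, at -0.41 (SE 0.17). CTH had few counts, 20 to 162 in a library of the first table.

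CBS, the preceding enzyme of the sulfur pathway, was called lower in 3 comparisons, at -0.90 (SE 0.35) in shD3 #1, -1.25 (SE 0.28) in shD3 #4 and -1.36 (SE 0.24) in the deep libraries. In siD3 #3 the groups overlapped, at -0.76 (SE 0.54), and the value was 0.11 without siControl replicate 2. These values are uncertain. It had 5 to 35 counts in a library of the first table, and 98.7% of the 1662 windows of 50 bases in its exons occur a second time on chromosome 21, so that reads could be split between copies. In shD3 #1 the adjusted p was 0.146 with DESeq2, and the call was kept in 2 of 12 alternatives. ASNS, asparagine synthetase, was also poorly measured, with 26 to 70 counts in a library of the first table. In the annotation 99.5% of its canonical transcript is shared on the same strand with a long non-coding gene, and reads that fit both could be left out. Its values of 0.17, -0.58, -0.26 and 0.01 were called in none of the comparisons, and the value in shD3 #4 passed the threshold with other scalings, at -0.59 (adjusted p = 0.019, edgeR with DESeq2 size factors).

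None of the 7 amino acid transporters was called higher in any comparison. In shD3 #1 3 fell (14.6% of all genes), in shD3 #4 none (4.49%), in siD3 #3 2 (9.42%) and in the deep libraries 1 (14.1%). In the same order 14.5%, 8.00%, 12.5% and 15.0% of all genes were called higher. In shD3 #4, where edgeR called 0, DESeq2 called 1 (SLC7A1) and 2 were lower at an unadjusted p under 0.05. In the 4 comparisons 1, 2, 0 and 2 were higher at an unadjusted p under 0.05, and DESeq2 called 0 higher. With the adjusted p alone, a stricter rule, 28.6%, 20.0%, 16.6% and 31.1% of all genes were higher, and 20.8% were lower in shD3 #4. Per kilobase of canonical transcript SLC3A2 had the highest level of the 35 members in sh1Control cells, at 358 cpm per kb (SD 9.28, n = 3), followed by SLC7A5 at 184 (SD 12.5), SLC38A2 at 113 (SD 4.88) and SLC1A5 at 113 (SD 1.54), of which the last 2 did not differ beyond their spread.

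SLC7A1, the cationic amino acid transporter CAT1, was lower in every comparison and was called in 2. It went from 59.1, 57.9 and 55.1 cpm to 32.7, 37.6 and 28.1 in shD3 #1, a log2 fold change of -0.79 (SE 0.09), and fell by 0.72 (SE 0.06) in the deep libraries. In shD3 #4 it went from 46.0, 50.1 and 57.5 cpm to between 33.4 and 34.99, a value of -0.58 (SE 0.08) at the edge of the fold threshold. In siD3 #3 it went from 38.3 and 34.3 to 20.3, 24.4 and 32.3 cpm, a value of -0.50 (SE 0.18, edgeR adjusted p = 0.069), and it was called, at -0.72 (SE 0.11), without replicate 3. Every depleted library lay below its controls in all 4 comparisons.

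SLC1A4, a carrier of alanine, serine and cysteine, fell in shD3 #1 from 50.4, 52.9 and 53.6 cpm to 31.0, 33.5 and 33.1 (log2 fold change -0.69, SE 0.07) and in siD3 #3 from 40.5 and 33.9 to 21.6, 21.0 and 21.0 (-0.81, SE 0.11). In shD3 #4 the groups overlapped, at 0.17 (SE 0.07), and in the deep libraries the value was -0.22 (SE 0.06), not called. SLC3A2, the heavy chain shared by several of these carriers, went from 694, 670 and 660 cpm to 447, 468 and 416 in shD3 #1, a fall of 0.60 (SE 0.06) on the log2 scale, with -0.00, 0.04 and -0.16 elsewhere. Without shD3 #1 replicate 3 it was at -0.56, no longer called. SLC7A5 (LAT1) and SLC7A11 (the cystine carrier xCT), its partners, were called nowhere, with values from -0.41 to 0.08 and from -0.24 to 0.32. SLC1A5, the glutamine carrier ASCT2, fell in siD3 #3 alone among the calls, from 239 and 210 cpm to 124, 126 and 175 (-0.66, SE 0.16), a call lost when siControl replicate 1 was left out (-0.57, edgeR adjusted p = 0.11). SLC38A2 (SNAT2), which amino acid shortage is known to induce, was called nowhere but lay above its controls with shD3 #1. It went from 538, 566 and 520 cpm to 807, 793 and 723 in shD3 #1 (0.52, SE 0.06) and from 618, 608 and 592 to 899.5, 900.2 and 891 in the deep libraries (0.57, SE 0.04), both without overlap and just under the fold threshold.

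ATF4 mRNA was not raised in any comparison. The gene lies at chr22:39519695-39522683 in GRCh38. Its libraries stood at 123, 119 and 129 cpm in sh1Control and 110, 105 and 128 in shD3 #1, which overlapped, with a log2 fold change of -0.12 (SE 0.07). In shD3 #4 it went from 152, 146 and 133 to 97.7, 104 and 103 cpm, a value of -0.50 (SE 0.07, edgeR adjusted p = 1.1e-06), under the fold threshold. In siD3 #3 it went from 142 and 170 to 126, 135 and 136 cpm (-0.24, SE 0.10). It fell in the deep libraries, from 90.4, 93.7 and 91.1 to 57.3, 59.9 and 58.4 cpm (-0.65, SE 0.04). The first and the deep shD3 #1 libraries therefore differed for ATF4, with overlap in the first and a wide gap in the second, and that difference itself was not tested, since the tables were normalised separately.

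CEBPG, the C/EBP protein that pairs with ATF4, had the narrowest range of values over the 4 comparisons of the members tested in all of them, 0.029 on the log2 scale. Its log2 fold changes were -0.36, -0.38, -0.39 and -0.38 (SE 0.06 to 0.09), with edgeR adjusted p-values of 0.00084, 7.4e-05, 0.013 and 5.7e-05, and it was called nowhere because every value was under the fold threshold. In shD3 #1 it went from 66.0, 63.4 and 64.3 cpm to 50.4, 45.3 and 56.2, in shD3 #4 from 74.8, 72.9 and 65.0 to 54.4, 52.4 and 57.1, and in siD3 #3 from 68.9 and 77.2 to 56.4, 57.0 and 54.0. No depleted library reached the level of its controls.

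The other factors of the second layer did not share a direction. DDIT3 (CHOP), which promotes death under prolonged stress, rose in siD3 #3 alone among the calls, from 7.41 and 5.13 cpm to 14.9, 15.9 and 19.5, a log2 fold change of 1.41 (SE 0.20, edgeR adjusted p = 0.0017). In shD3 #1, shD3 #4 and the deep libraries it was at 0.29, -0.04 and -0.18. In the annotation 24.3% of its canonical transcript lies opposite other genes, among them MARS1, and the strand setting of the counting was not stated. MARS1 held 1662 to 3475 counts in the first libraries, against 74 to 392 for DDIT3. CEBPB, another partner of ATF4, fell in shD3 #1 from 72.9, 80.0 and 78.1 cpm to 50.4, 49.5 and 47.0 (-0.65, SE 0.07) and was at 0.36 (SE 0.09) in siD3 #3, where the depleted libraries lay above both controls. In shD3 #4 it was at -0.06 and in the deep libraries at -0.16 (SE 0.08), with overlapping groups in both. JDP2, a repressor of the same leucine zipper family, fell in the deep libraries by 0.91 (SE 0.08) on the log2 scale, from 26.6, 28.1 and 27.4 cpm to 15.5, 15.6 and 12.7, and was at -0.46 (SE 0.09) in shD3 #1.

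NUPR1, a small chromatin protein of the stress response, was barely present. It held at most 16 counts in any first library, so that it was not tested in the hairpin comparisons of that table. In the deep libraries it fell from 2.45, 2.36 and 2.00 cpm to 0.261, 0.220 and 0.499, which is 14.4% of the control mean, a log2 fold change of -2.74 (SE 0.27). In siD3 #3 it stood at 0.755, 0.685 and 0.797 cpm against 0.109 and 0.485, a value of 1.40 (SE 0.57) that did not pass (edgeR adjusted p = 0.096).

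XBP1, the factor activated by the IRE1 arm of the endoplasmic reticulum stress response, was the transcription factor with the widest gap between hairpins. It held 185, 181 and 186 cpm in sh1Control and 107, 109.9 and 99.99 in shD3 #1, and it held 142, 143 and 165 in sh4Control and 286, 307 and 298 in shD3 #4. It fell by 0.80 (SE 0.06) on the log2 scale with the first hairpin and rose by 0.99 (SE 0.07) with the second. In siD3 #3 the libraries stood at 93.6, 85.9 and 57.7 cpm against 104 and 81.5 (-0.23, SE 0.20, and -0.06 without replicate 3), and in the deep libraries the groups overlapped at 0.15 (SE 0.06). The fall in shD3 #1 was thus not seen in the deep libraries of the same hairpin.

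The stress effectors moved in both directions. Of 10, 4 rose and 1 fell in shD3 #1 (14.5% and 14.6% of all genes), and none rose and 4 fell in shD3 #4 (8.00% and 4.49%). In siD3 #3 1 rose and 2 fell (12.5% and 9.42%), and in the deep libraries 1 rose and 3 fell (15.0% and 14.1%). CHAC1, which degrades glutathione and is a sensitive target of ATF4 (ENSG00000128965, chr15:40952962-40956512 in GRCh38), stood at 3.79, 2.67 and 2.67 cpm in sh1Control and at 6.29, 6.65 and 8.45 in shD3 #1, and at 3.41, 2.91 and 2.84 in sh4Control and 1.61, 0.860 and 1.78 in shD3 #4. The log2 fold change was 1.20 (SE 0.17) with the first hairpin, a rise, and -1.09 (SE 0.22) with the second, a fall. It rose again in the deep libraries, from 1.27, 1.39 and 1.19 cpm to 3.39, 4.43 and 3.77, by 1.58 (SE 0.16). The siD3 #3 libraries stood at 4.48, 3.08 and 5.73 cpm against 1.20 and 3.05 in siControl. The value of 1.10 (SE 0.41, edgeR adjusted p = 0.076) did not pass, and it passed at 1.12 (adjusted p = 0.0074) when all 17 libraries shared 1 edgeR fit. It ranged from 0.54 without siControl replicate 1 to 1.87 without siControl replicate 2, where it passed. CHAC1 was a weak signal throughout, with 15 to 136 counts in a library.

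STC2, a secreted glycoprotein induced by stress, had the largest fall with shD3 #4. It held 29.4, 27.5 and 28.1 cpm in sh4Control and 9.22, 8.14 and 11.7 in shD3 #4, a log2 fold change of -1.55 (SE 0.10, edgeR adjusted p = 2.4e-12). In shD3 #1 it rose from 32.1, 31.4 and 28.1 to 53.4, 54.7 and 57.8 cpm, by 0.85 (SE 0.07). In siD3 #3 it stood at 26.0, 25.8 and 64.2 cpm against 25.1 and 25.8, so that 1 library made the mean, and the value of 0.61 (SE 0.39) did not pass. Without that library it was 0.02 (SE 0.09).

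EIF4EBP1, which blocks the cap-binding factor eIF4E, rose in shD3 #1 by 0.63 (SE 0.10) and fell in shD3 #4 by 0.62 (SE 0.09) and in siD3 #3 by 0.75 (SE 0.11) on the log2 scale, none with overlapping groups. The rise in shD3 #1 was 0.48, no longer called, without shD3 #1 replicate 3. In the deep libraries it was at 0.01 (SE 0.06), with overlap. PPP1R15A (GADD34), which restores translation by removing phosphate from eIF2, rose in shD3 #1 in the first libraries, from 29.6, 28.7 and 28.3 cpm to 60.1, 60.6 and 59.0 (1.05, SE 0.06). It also rose in siD3 #3, from 34.7 and 29.2 cpm to 66.1, 68.2 and 105 (1.32, SE 0.21), where replicate 3 was the highest and the others still lay above both controls, and without it the value was 1.06 (SE 0.10), still called. The deep controls already stood at 111, 106 and 109 cpm and the depleted cells at 124, 125 and 123, a value of 0.19 (SE 0.04).

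VLDLR, a lipoprotein receptor, and VEGFA, the endothelial growth factor, are known targets of ATF4. VLDLR fell from 58.1, 56.9 and 52.0 cpm to 30.5, 31.9 and 27.5 in shD3 #1 (-0.89, SE 0.08) and from 66.4, 64.8 and 65.0 to 34.1, 35.4 and 35.8 in the deep libraries (-0.90, SE 0.05), and stood at 0.08 in shD3 #4 and -0.11 in siD3 #3. VEGFA was called in the deep libraries, at -0.67 (SE 0.05), and DDIT4 (REDD1), which restrains mTORC1, likewise at -0.62 (SE 0.06). XPOT, the exportin of tRNA, was below its controls in every library of all 4 comparisons, at -0.53, -0.30, -0.62 and -0.58 (SE 0.04 to 0.11), and was called in siD3 #3. That call was lost in 5 alternatives, at -0.57 with at least 10 counts in every library, with glmTreat, at -0.53 without siControl replicate 2, and at -0.56 and -0.58 without siD3 #3 replicates 1 and 2. In shD3 #1 it was called at -0.60 without shD3 #1 replicate 3. TRIB3, a pseudokinase that restrains ATF4, was called in shD3 #4 alone, at -0.59 (SE 0.07), close to the threshold, and HERPUD1, of endoplasmic reticulum protein degradation, nowhere, with values from -0.03 to 0.37.

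**Figure D3:**
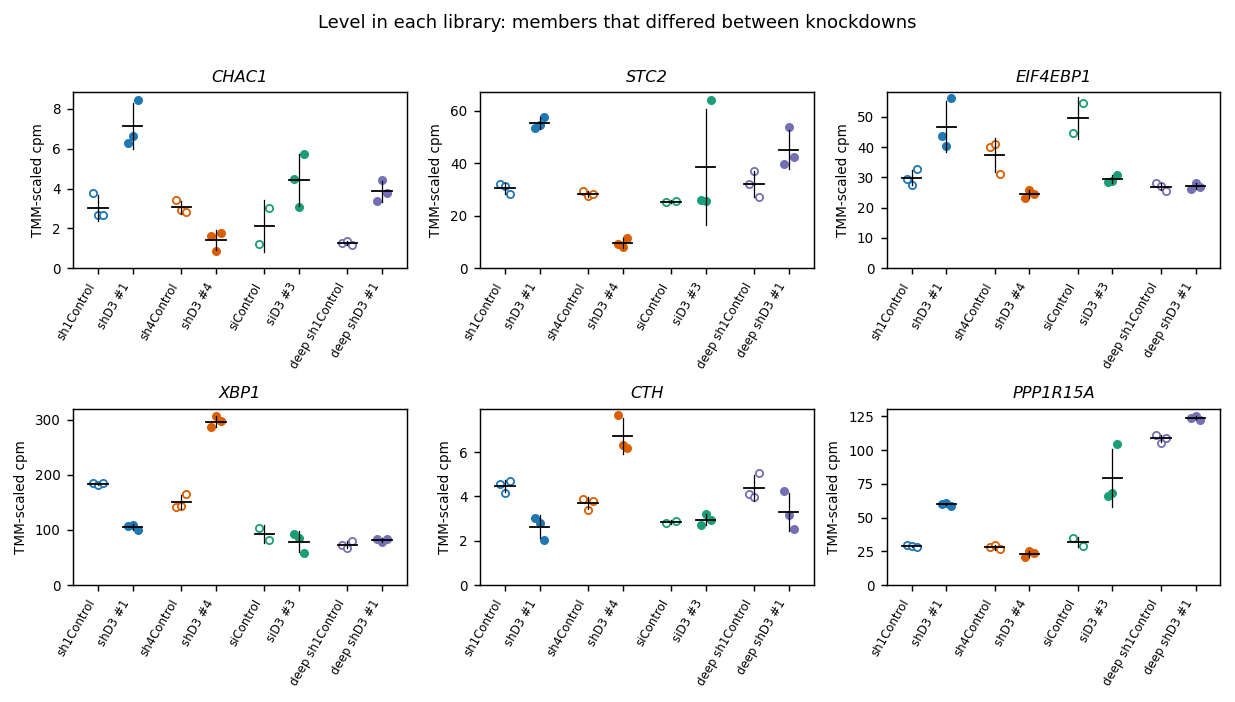
Level in each library in TMM-scaled cpm (y axis, from 0) of 6 members, by group (x axis). Open points are control libraries, filled points knockdown libraries, horizontal lines group means and vertical lines 1 SD. CHAC1, STC2 and EIF4EBP1 lie above their controls in shD3 #1 and below them in shD3 #4, XBP1 and CTH the reverse, and 1 siD3 #3 library of STC2 lies at 64.2 cpm, apart from the others.

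The hairpins were compared in 1 model of the 17 first libraries, by the difference between the effect of shD3 #1 over its control and that of shD3 #4 over its own. Of the 35 members, 8 had a higher effect with shD3 #1 and 7 a lower one, 15 in all, where 12.1% of all 18672 genes were higher and 13.8% lower. The largest differences were those of STC2, at 2.40 (SE 0.33, edgeR adjusted p = 8.4e-06), CHAC1, at 2.30 (SE 0.39), XBP1, at -1.79 (SE 0.17), and CTH, at -1.61 (SE 0.21). PPP1R15A and EIF4EBP1 followed, at 1.32 (SE 0.19) and 1.24 (SE 0.17). The 5 members called in opposite directions in different knockdowns were CTH, XBP1, CHAC1, EIF4EBP1 and STC2, 5 of 34 beside 3.54% of all genes. Without shD3 #1 replicate 3, 13 of the 15 differences stayed, and those of SLC3A2 and CEBPB, both at -0.56, were no longer called. Across the 34 members the log2 fold changes of the hairpins had a Pearson r of -0.39, a description over genes, which share libraries and are not replicates, and 16 had the same sign. PSAT1, CBS, CEBPG and SLC7A1 were among those that were lower with both. THUMPD3 itself was lowered less by shD3 #1 than by shD3 #4, by 0.70 (SE 0.10), and the part of this in the differences was not tested.

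**Figure D4:**
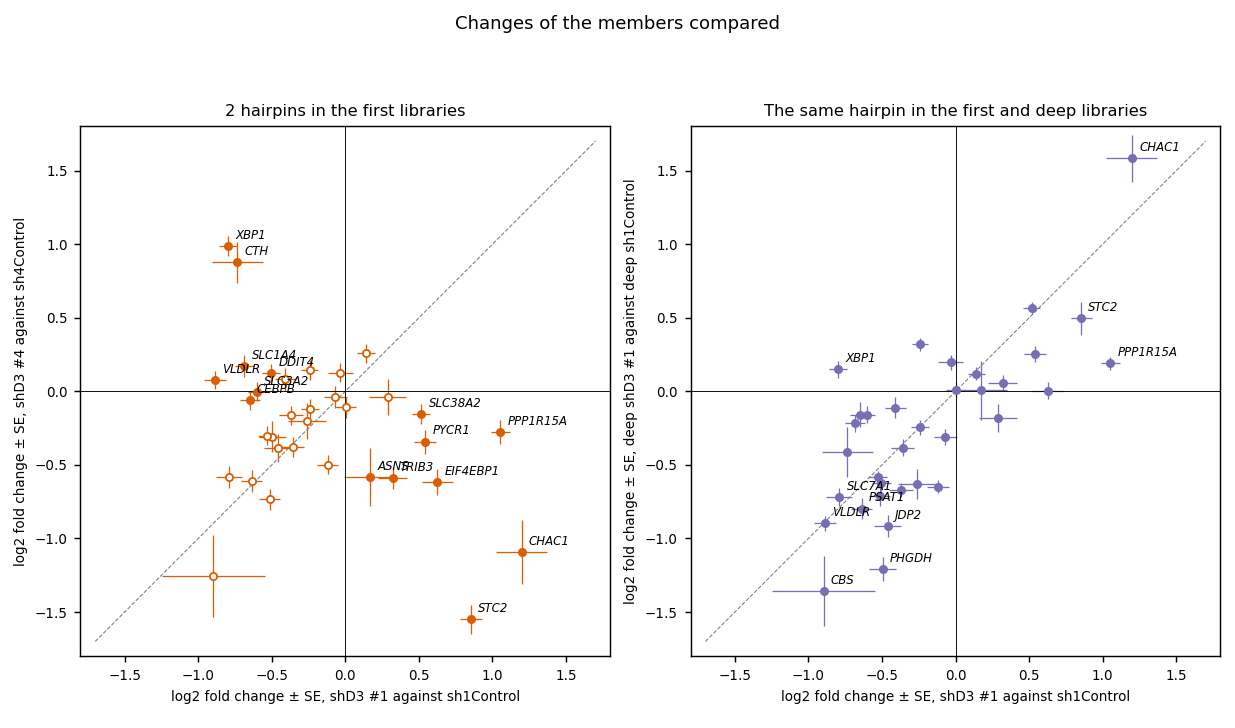
Log2 fold change with standard errors of 34 members: shD3 #1 (x axis) against shD3 #4 (left, y axis) and against the deep shD3 #1 libraries (right, y axis), with the line of equal values dashed. Filled and named points on the left are the 15 members whose effects differed between the hairpins, and on the right named points exceed 0.75 in size on either axis. The points spread along the falling diagonal on the left (r = -0.39) and along the rising one on the right (r = 0.75).

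The siRNA was set against the mean of both hairpins in the same model. Its effect was higher for 7 members and lower for 4, where 9.43% of all genes were higher and 7.12% lower. PHGDH had the largest negative difference, at -1.49 (SE 0.20), then PYCR1, at -1.21 (SE 0.12). Among the genes that were higher, DDIT3 had a difference of 1.29 (SE 0.18) and PPP1R15A one of 0.94 (SE 0.17). For STC2 the difference of 0.97 (SE 0.30) dropped to 0.38 (SE 0.12), under the fold threshold, without siD3 #3 replicate 3, and for CHAC1 that of 1.08 (SE 0.38) went to 0.49 (edgeR adjusted p = 0.41) without siControl replicate 1. THUMPD3 was also lower with the siRNA, by 1.21 (SE 0.10), and the part of this was not tested.

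The hairpin sequenced in both tables gave the members similar values but not the same calls. Over 34 members the Pearson r between the first and the deep shD3 #1 comparisons was 0.75, again over genes and without a test, and 30 had the same sign. Of the 13 members called in each, 5 were called in both in the same direction, which is 38.5% of either list, and none in opposite directions. CHAC1 rose in both, and PSAT1, CBS, SLC7A1 and VLDLR fell in both, though the call of CBS in the first libraries was kept in only 2 of 12 alternatives. Among all 13884 genes tested in both, 9.64% rose in both and 7.96% fell in both. Of the members that fell in the first libraries 44.4% were also called in the deep ones, against 53.7% of all such genes, and of those that rose 25.0% against 65.4%.

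Other parts of the pathway were read from fixed lists. Of 20 genes of the eIF2 kinases and of the control of ATF4, 2 rose and 2 fell in shD3 #1 (14.5% and 14.6% of all genes). In shD3 #4 0 and 1 did (8.00% and 4.49%), in siD3 #3 0 and 0 (12.5% and 9.42%), and in the deep libraries 1 and 1 (15.0% and 14.1%). In siD3 #3 1 was higher and 6 lower at an unadjusted p under 0.05. With the adjusted p alone, a stricter rule, 16.6% and 16.4% of all genes were higher and lower there. The medians were 0.03, -0.09, -0.13 and 0.01, beside -0.01, 0.01, 0.03 and -0.02 over all genes. BTRC, the ubiquitin ligase subunit that marks ATF4 for degradation, rose by 1.34 (SE 0.07) in shD3 #1 and by 0.92 (SE 0.05) in the deep libraries, with 0.15 in shD3 #4 and 0.22 in siD3 #3. EIF2S2, the beta subunit of eIF2, fell in shD3 #4 from a mean of 117 to 72.0 cpm (-0.70, SE 0.07). In siD3 #3 the largest value of this list was that of EIF2B3, of the exchange factor eIF2B, at -0.48 (SE 0.11), which was not called.

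A second list of 20 other genes that ATF4 is known to activate, 18 of them tested, was read in the same way. In shD3 #1 8 rose and 2 fell (14.5% and 14.6% of all genes), and in shD3 #4 1 and 1 (8.00% and 4.49%). In siD3 #3 8 rose and 2 fell (12.5% and 9.42%), and in the deep libraries 6 and 1 (15.0% and 14.1%). The medians were 0.41, -0.13, 0.25 and 0.12, beside -0.01, 0.01, 0.03 and -0.02 over all genes. ATF3, an early stress factor, rose from a mean of 1.68 to 6.58 cpm in shD3 #1 (1.97, SE 0.21), from 1.99 to 15.2 in siD3 #3 (2.91, SE 0.32) and from 59.7 to 197 in the deep libraries (1.73, SE 0.06), and was at 0.32 (SE 0.20) in shD3 #4. SESN2, GADD45A and BBC3, which p53 also activates, rose in siD3 #3 by 2.36, 2.30 and 2.34 on the log2 scale and in shD3 #1 by 0.79, 1.42 and 1.38. None of them was called in shD3 #4, and in the deep libraries GADD45A and BBC3 rose and SESN2 was not called. The part of p53 was not tested. Other genes of the list fell: SLC38A1 in shD3 #1 and siD3 #3, ATF5 in shD3 #1 and the deep libraries, and SLC43A1 in siD3 #3. ULBP1, a ligand of natural killer cells, fell in shD3 #4 by 1.60 (SE 0.17).

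The 22 genes of the IRE1 and ATF6 arms held 3 that rose and 4 that fell in shD3 #1 (14.5% and 14.6% of all genes). They held 2 and 0 in shD3 #4 (8.00% and 4.49%), 2 and 5 in siD3 #3 (12.5% and 9.42%), and 3 and 1 in the deep libraries (15.0% and 14.1%). DNAJB9 (ERdj4), a chaperone of the endoplasmic reticulum, was the only gene of any of these 4 lists to rise in all 3 knockdowns. Over all genes tested in all 3, 1.02% did. DNAJB9 rose by 0.68 (SE 0.07), 0.66 (SE 0.07) and 0.97 (SE 0.13), and by 0.66 (SE 0.08) in the deep libraries. HSP90B1 (GRP94), a chaperone of the same compartment, fell by 0.96 (SE 0.06) in shD3 #1 and by 0.82 (SE 0.10) in siD3 #3, and was at -0.06 in shD3 #4. MANF, a secreted stress factor, fell by 0.74 (SE 0.07) in shD3 #1, by 0.63 (SE 0.13) in siD3 #3 and by 0.93 (SE 0.07) in the deep libraries, and was at -0.01 in shD3 #4.

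Targets of the hypoxia factor HIF were read because VEGFA and DDIT4 belong to them as well. Of 22, 5 rose and 1 fell in shD3 #1 (14.5% and 14.6% of all genes). In shD3 #4 edgeR called none (8.00% and 4.49%), with 6 higher and 5 lower at an unadjusted p under 0.05. With the adjusted p alone, a stricter rule, 20.0% and 20.8% of all genes were higher and lower there. In siD3 #3 6 rose and 2 fell (12.5% and 9.42%), and in the deep libraries 4 rose and 5 fell (15.0% and 14.1%). CA9, a carbonic anhydrase, fell in 3 comparisons, with log2 fold changes of -2.21 (SE 0.27) in shD3 #1, -1.55 (SE 0.33) in siD3 #3 and -1.75 (SE 0.22) in the deep libraries. It was at -0.45 (SE 0.18) in shD3 #4, where the largest value of this list was that of PDK1, at 0.51 (SE 0.11).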

How the data were processed

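RNA of 23 libraries had been sequenced with a directional kit after removal of ribosomal RNA. Per the labels and the methods of the study, the authors trimmed the reads with Trimmomatic 0.40, aligned them to GRCh38.p14 with STAR 2.7.10a and deposited the gene counts it reports, without normalisation. The strand column was not given in the sources used here. The Ensembl IDs of the first table were matched to symbols. Each knockdown was compared with its own control in edgeR 4.0.16 (R 4.3.3), with TMM scaling, its default filter and the quasi-likelihood test, and differences between knockdowns were contrasts in 1 model of 17 libraries. The script was tested on simulated data. All 35 members and THUMPD3 were named, and from each other list the genes called alike in all 3 knockdowns and that with the largest change in each comparison. SESN2, GADD45A, BBC3, SLC38A1, ATF5, SLC43A1, and values beyond this rule, were chosen after their values were seen. The members and lists were chosen with earlier results of these data known. Alternatives were DESeq2 1.42.0, its size factors, other filters, a test against the threshold (glmTreat), 1 shared fit, the replicate number as a block and each library left out. Coordinates are from GENCODE for GRCh38. Replicates are labelled as biological, and p-values measure the spread between these libraries.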

Additional observations from a re-analysis of the deposited data

Results flagged for a closer look

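The effect of shD3 #1 differed from that of shD3 #4 for 15 members, by the edgeR contrast of the 2 effects (on the log2 scale, shD3 #1 minus shD3 #4, adjusted over all genes). It was higher for STC2 (2.40), CHAC1 (2.30), PPP1R15A (1.32), EIF4EBP1 (1.24), TRIB3 (0.91), PYCR1 (0.88), ASNS (0.75) and SLC38A2 (0.67). It was lower for XBP1 (-1.79), CTH (-1.61), VLDLR (-0.97), SLC1A4 (-0.86), DDIT4 (-0.63), SLC3A2 (-0.60) and CEBPB (-0.59). The differences of ASNS, SLC3A2 and CEBPB passed the thresholds least securely.

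The effect of siD3 #3 differed from the mean of the hairpins for 11 members. It was higher for NUPR1 (2.33), DDIT3 (1.29), CHAC1 (1.08), STC2 (0.97), PPP1R15A (0.94), CEBPB (0.73) and JDP2 (0.60), and lower for PHGDH (-1.49), PYCR1 (-1.21), EIF4EBP1 (-0.74) and SHMT2 (-0.72). The differences of CHAC1 and JDP2 were the least secure, each called in 13 of 22 alternatives. NUPR1 rests on at most 16 counts in a library, and its difference was 1.52 (adjusted p = 0.15) without siControl replicate 1.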

How the results depend on the processing

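Of 71 called values of members, differences included, 41 were called in every alternative, and no called value changed direction. With glmTreat, which tests against the fold threshold, the members called were 6 in shD3 #1, 2 in shD3 #4 and 5 in siD3 #3, in place of 13, 9 and 10 (16.7%, 4.14% and 9.81% of all genes), and 9 in the deep libraries (17.9%). With the adjusted p alone, added after seeing the data, they were 26 in shD3 #1 (56.5% of all genes), 19 in shD3 #4 (40.8%) and 28 in the deep libraries (62.6%). Those of siD3 #3 are given above, where 33.0% of all genes passed. The replicate numbers showed no clear pairing of the libraries in the hairpin comparisons. There, deviations from the group mean correlated at -0.078 to 0.074 between same-numbered libraries and at -0.059 to 0.062 between others. In the siRNA comparison the deviations of the 2 controls mirror each other, so that such correlations cannot show pairing. With the replicate number as a block 12, 10, 12 and 13 members were called in the 4 comparisons (29.0%, 12.5%, 25.1% and 28.2% of all genes) and 15 and 10 differences (26.8% and 17.1%). Without shD3 #1 replicate 3, 13 members were called in shD3 #1, 11 of them as before (28.6% of all genes). Without siD3 #3 replicate 3, 11 were called in siD3 #3, 10 as before (25.0% of all genes). Some values that were not called changed sign, most of them near 0. Exceptions were CBS and ASNS in siD3 #3, with main values of -0.76 and -0.26. SHMT2 in shD3 #1 was -0.014 without a filter, -0.011 with at least 10 counts in every library, -0.00066 with the block and -0.017 in 1 fit. With at least 10 counts, SLC3A2 in shD3 #4 was 0.0027, ALDH1L2 and SLC7A11 in siD3 #3 were 0.021 and 0.023, and EIF4EBP1 in the deep libraries was -0.00154. Without a filter, SHMT2, ASNS and EIF4EBP1 in the deep libraries were -0.016, -0.0186 and -0.0205. Leaving out 1 library at a time, the values ran in shD3 #1 from -0.031 to 0.059 (SHMT2), -0.12 to 0.0065 (PSPH) and -0.12 to 0.054 (HERPUD1). In shD3 #4 they ran from -0.029 to 0.011 (SLC3A2), -0.12 to 0.0026 (PSPH) and -0.11 to 0.019 (DDIT3). In siD3 #3 they ran from -0.20 to 0.19 (ALDH1L2), -0.11 to 0.046 (SLC7A11), -0.31 to 0.055 (SLC7A5), -0.58 to 0.0905 (ASNS), -1.38 to 0.11 (CBS), -0.079 to 0.14 (SLC3A2) and -0.0068 to 0.12 (CTH). In the deep libraries they ran from -0.040 to 0.040 (SHMT2), -0.10 to 0.17 (ASNS) and -0.031 to 0.036 (EIF4EBP1). The cause was not tested. Counts limit CBS, NUPR1, ASNS, CHAC1 and CTH.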
